A study of Mus musculus with 43 samples.

Results

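The lipid-exporting ABC transporters described here are 8 genes of the 54532 in the deposited table: Abcg1, Abcb4, Abca1, Abca2, Abca3, Abca7, Abcg3 and Abcg4. Each was found by its exact symbol, and all 8 had a row and passed the filter of at least 0.5 CPM (gene counts scaled to a common library total) in at least 1 library, as did 29120 genes in all. The family was chosen with results of these data in view. The study had named Abcg1, Abcb4 and the ABCG members for their levels in wild-derived against long-inbred strains, so that contrast is given below as values, without a test. Comparisons of region, sex and title word, and of strains within an origin, were not the contrast of the choice and were tested. The strain comparisons use libraries that entered that contrast, so they are not independent of it.

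RNA was sequenced from endothelial cells (EC) of the brain, sorted as CD31 positive, CD45 negative and CD11b negative cells from mice aged 2 months, in 43 libraries. The wild-derived strains CAST/EiJ and WSB/EiJ gave 6 libraries each. The long-inbred strains gave 9 (129S1/SvImJ), 5 (A/J), 6 (C57BL/6J), 5 (DBA/2J) and 6 (NOD/ShiLtJ) libraries, 31 in all. Cortex gave 21 libraries and hippocampus 22, and 16 came from female and 27 from male mice. Female libraries were 6 of 9 in 129S1/SvImJ, 1 of 5 in A/J and in DBA/2J, and 2 of 6 in each other strain. No treatment or engineered allele is given for any group. A further word in the titles, high or low, is left undefined by the labels. The word high stood on 15 of the 16 female and 14 of the 27 male libraries. The mouse behind a library is not given, so p-values measure the spread between libraries, which may share a mouse. In sorted bulk RNA, fewer cells of a type and less RNA per cell cannot be told apart.

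Library totals ran from 1626534 to 49372356 counted reads, and 3 counts, taken here as the floor of detection, therefore stood for different CPM in different libraries. Female libraries were deeper (median 21242100 counts) than male libraries (median 5257350), and the rRNA-like genes Gm23935, Gm42418 and Gm26917 took 1.59% to 12.1% of a female and 12.97% to 29.3% of a male library. The 12 endothelial markers, among them Cldn5 and Pecam1, were all detected, with a summed level of 9096 to 17918 CPM. Pericyte markers summed to 2114 to 9737 CPM and astrocyte markers to 1093 to 19628 CPM, while microglial markers, whose cells the sort removes, summed to 0.555 to 148 CPM.

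ABC transporters use ATP to move substrates across membranes, and the members described here belong to subfamilies that include transporters of sterols and phospholipids. Abca1 loads cholesterol and phospholipid onto lipid-poor apolipoprotein A-I, and Abcg1 passes cholesterol to particles that already carry lipid. Both are classical targets of the liver X receptors (LXR), sterol-sensing nuclear receptors. In the brain, which makes its own cholesterol behind the blood-brain barrier, apolipoprotein E is the main acceptor. Abcb4 turns phosphatidylcholine to the outer leaflet of the membrane and is known from bile secretion. Abca2 acts in endolysosomes and is abundant in oligodendrocytes, Abca3 fills the lamellar bodies of the lung with surfactant lipid, and Abca7 is a risk gene for Alzheimer's disease. Abcg4 is a close relative of Abcg1 found in the nervous system, and Abcg3 is a rodent gene related to Abcg2.

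The promoters of 2 members are shown because their genes carry the main results below: Abcb4 set CAST/EiJ apart, and Abca1, an LXR target, stood at the highest level per exon length. They come from RefSeq on GRCm38.p6, from 250 bases before to 50 bases after the transcript start, and 6 of the 8 members had an entry (all but Abcg1 and Abcg4). GRCm38.p6 is the C57BL/6J genome, and the promoters of CAST/EiJ and the other strains were not examined. The Abcb4 promoter lies at chr5:8893471-8893770 on the plus strand and the Abca1 promoter at chr4:53159846-53160145 on the minus strand. Both are written 5′ to 3′ along the gene, with matches to the motifs searched in capitals.
Abcb4: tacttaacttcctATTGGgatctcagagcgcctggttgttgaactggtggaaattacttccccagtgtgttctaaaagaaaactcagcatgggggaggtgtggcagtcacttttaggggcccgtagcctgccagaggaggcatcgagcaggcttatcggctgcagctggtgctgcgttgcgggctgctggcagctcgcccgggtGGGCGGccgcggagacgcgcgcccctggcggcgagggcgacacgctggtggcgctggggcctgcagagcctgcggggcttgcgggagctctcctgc
Abca1: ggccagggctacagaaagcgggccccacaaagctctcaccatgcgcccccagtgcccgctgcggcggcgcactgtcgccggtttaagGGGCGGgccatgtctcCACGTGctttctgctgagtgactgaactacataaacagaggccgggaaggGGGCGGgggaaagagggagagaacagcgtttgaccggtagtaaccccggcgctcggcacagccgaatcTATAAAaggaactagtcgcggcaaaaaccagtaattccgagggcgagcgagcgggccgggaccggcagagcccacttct

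Both strands were searched for AGGTCA (the core site of nuclear receptors), its spaced direct repeat bound by LXR, named DR4, GGGCGG (a GC box), CACGTG (an E-box), CCAAT (the NF-Y motif) and TATAAA (the TATA box). Sites of AGGTCA lie within each DR4 match, and the other motifs share no bases with one another in the members. The Abcb4 promoter held GGGCGG at position -46 from the start and CCAAT on the reverse strand (printed as ATTGG) at -237. The Abca1 promoter held GGGCGG at -163 and -97, CACGTG at -147 and TATAAA at -29. Of 32544 mouse promoters of this length, 35.9% held GGGCGG, 37.4% CCAAT, 7.17% CACGTG and 13.6% TATAAA. No member's window held an exact AGGTCA, which 16.2% of all promoters held, or an exact DR4, which 0.0154% held. Sites that differ from these letters at any base were not searched for, and only 5 of 32544 promoters held an exact DR4. The search could therefore not decide whether a member has an LXR site, and the absence of one is not shown. These matches are a description of letters and show no binding.

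Levels between genes were compared as CPM per kb of exon, the exons of a gene being merged over its transcripts. Abca1 had the highest mean level at 12.7 ± 5.18 CPM per kb (SD, n = 43 libraries), followed by Abca3 at 11.7 ± 4.80, Abca2 at 8.04 ± 3.72 and Abca7 at 7.62 ± 4.87. Abcg1 followed at 5.003 ± 5.02 CPM per kb. The other 3 members were low on the same scale, with Abcb4 at 1.56 ± 2.32, Abcg3 at 1.01 ± 1.75 and Abcg4 at 0.644 ± 0.990. Neighbours in this order differed by less than their spread over libraries. Counts of 3 or fewer were found in 21 libraries for Abcg3, 19 for Abcg4, 9 for Abcb4 and 1 for Abcg1, and in no library for the 4 Abca genes.

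**Figure D1:**
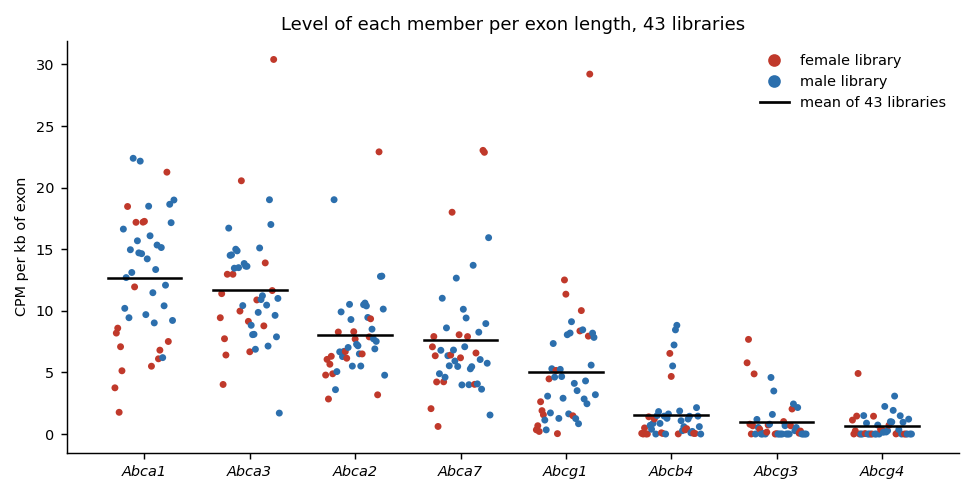
CPM per kb of exon for each member in 43 libraries, ordered by mean level; each point is a library, coloured by sex, and the bar is the mean. Abca1 and Abca3 lead at means of 12.7 and 11.7 CPM per kb, and Abcb4, Abcg3 and Abcg4 lie near 0 in most libraries.

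Abcb4 (ENSMUSG00000042476, 5:8893717-8959231 on mm10) was the member with the clearest strain pattern. Its level in the 6 CAST/EiJ libraries was 61.4 CPM in female cortex and 43.9 CPM in female hippocampus. The male CAST/EiJ libraries stood at 67.8 and 82.8 CPM in cortex and at 51.8 and 79.3 CPM in hippocampus. In WSB/EiJ, the other wild-derived strain, female libraries stood at 0.432 and 0.487 CPM, with 1 and 2 counts. Male WSB/EiJ libraries stood at 20.1 and 5.64 CPM in cortex and at 13.6 and 0 CPM in hippocampus. The highest long-inbred library reached 17.5 CPM. CAST/EiJ was thus high in both sexes and both regions, and 37 of 37 libraries of the other 6 strains lay below its lowest library. That count takes in the long-inbred libraries of the contrast on which the family was chosen, so it is a description.

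Within the wild-derived strains, Abcb4 was higher in CAST/EiJ than in WSB/EiJ by a fitted log2 fold change of 3.26 (SE 0.75, edgeR quasi-likelihood test, two-sided, adjusted p = 0.0182). It was the only 1 of the 8 members called in this comparison, in which 1.87% of 20712 genes were called. The same CAST/EiJ libraries entered the origin contrast on which the family was chosen. For Abcb4 this test is therefore not independent of the choice. The groups of 6 libraries did not overlap, and the share of all genes that separate in this way was not counted. The lack of overlap is thus a description without its background. In the same edgeR test 1 member and 2934 of the 20712 genes had an unadjusted p under 0.05. With both sexes and regions in the model the log2 fold change was 3.79 (adjusted p = 0.0053), and with DESeq2 it was 3.20 (adjusted p = 0.00382). The call was lost when the CAST/EiJ female cortex library was left out (log2 fold change 3.23, adjusted p = 0.0573), and likewise without the male hippocampal library titled high (3.19, adjusted p = 0.0611) or the male cortical library titled high (3.18, adjusted p = 0.0652). Among male libraries alone it was 2.78 (adjusted p = 0.0666).

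**Figure D2:**
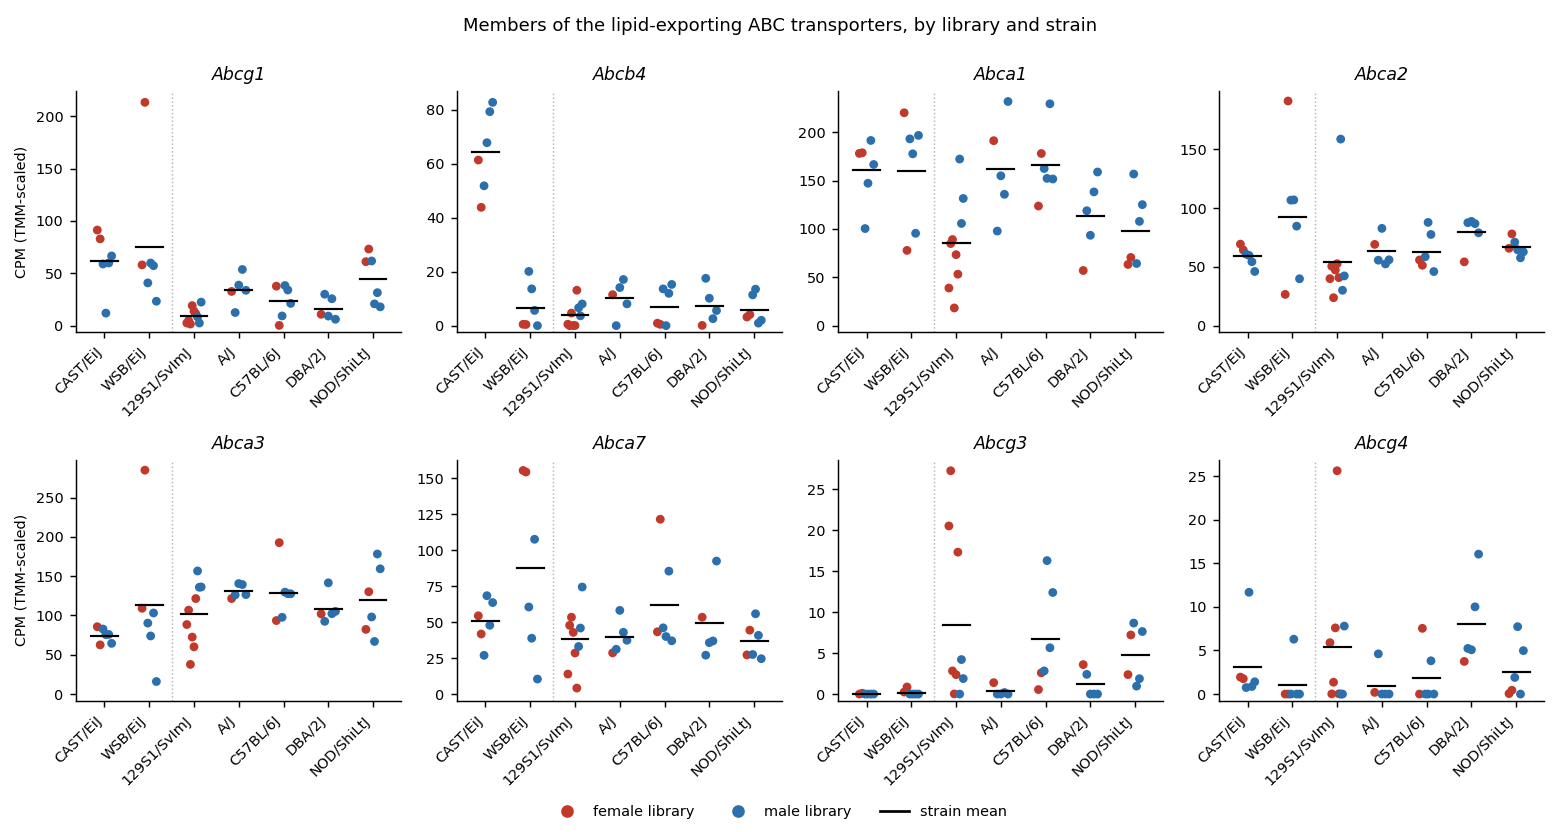
TMM-scaled CPM of the 8 members by strain, 1 panel per gene with its own axis; points are libraries, coloured by sex, bars are strain means, and the dotted line separates the 2 wild-derived strains from the 5 long-inbred strains. All 6 CAST/EiJ libraries lie above every other library for Abcb4, while strains overlap for the Abca genes.

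The locus of Abcb4 holds 2 close relatives, Abcb1a and Abcb1b, which encode P-glycoproteins, the drug efflux pumps of the blood-brain barrier. A stretch of 177 bases of the Abcb4 transcript matches Abcb1b at 98.3% identity, so the gene of origin of reads from that stretch is uncertain. Abcb1b itself stood at 15.3 to 25.3 CPM in CAST/EiJ and at 0.432 to 5.24 CPM in WSB/EiJ, and was called higher in CAST/EiJ with a log2 fold change of 3.43 (SE 0.87, adjusted p = 0.0337, edgeR). It was chosen for this description after its values were seen. In NOD/ShiLtJ, however, Abcb1b stood at 8.64 to 27.7 CPM and Abcb4 at 0.936 to 13.5 CPM, so the levels of these genes did not follow each other over all strains. Abcb1a was abundant, at a mean of 1313 ± 159 CPM in CAST/EiJ and 1570 ± 136 CPM in WSB/EiJ (SD, n = 6 each), and was not called (log2 fold change -0.22, SE 0.15, adjusted p = 0.51, edgeR).

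**Figure D3:**
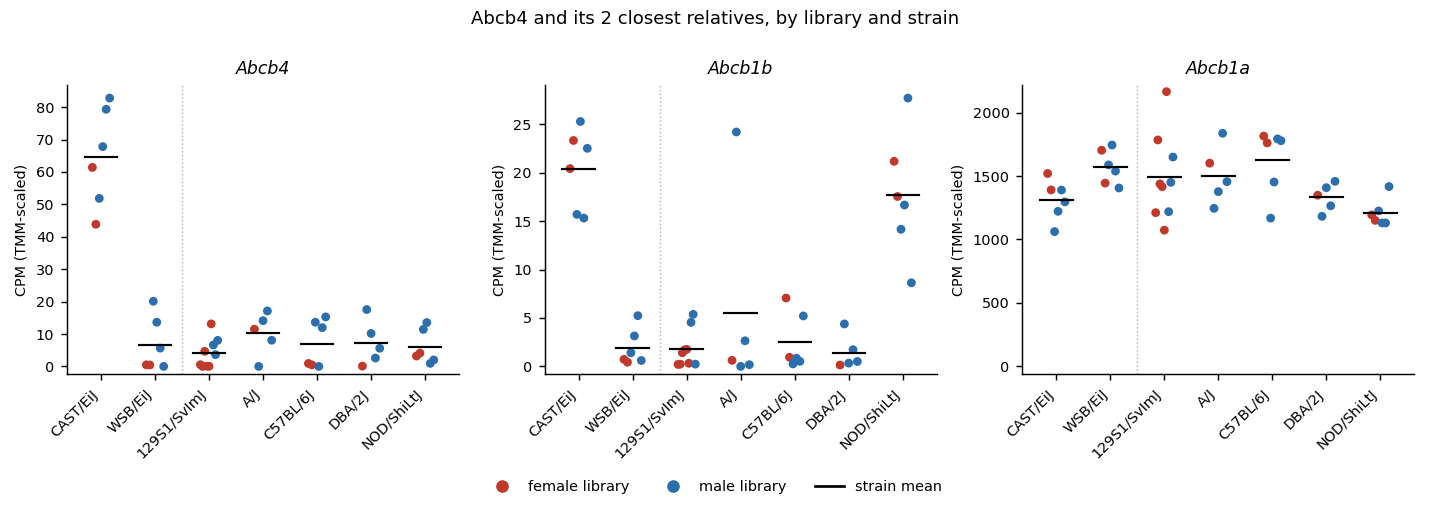
TMM-scaled CPM of Abcb4 and its closest relatives Abcb1b and Abcb1a by strain; points are libraries, coloured by sex, and bars are strain means. Abcb4 is high in CAST/EiJ alone, Abcb1b in CAST/EiJ (15.3 to 25.3 CPM) and NOD/ShiLtJ (8.64 to 27.7 CPM) and in a single A/J library (24.2 CPM), and Abcb1a stands at 1062 CPM or more in each library.

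Markers of other cell types also differed between CAST/EiJ and WSB/EiJ. Of 9 pericyte markers, 4 (Rgs5, Abcc9, Vtn and Notch3) were lower in CAST/EiJ, and the 9 summed to 2114 to 3079 CPM there against 5208 to 9737 CPM in WSB/EiJ. Of 12 endothelial markers 3 were higher in CAST/EiJ (Tek, Ly6c1 and Cldn5), with sums of 11633 to 16164 CPM against 11593 to 15664 CPM. Acta2 and Tagln, 2 of 5 smooth muscle markers tested, were higher in CAST/EiJ, and the list summed to 200 to 427 CPM against 141 to 501 CPM. Cnp, 1 of 6 oligodendrocyte markers tested, was lower. Markers of astrocytes, neurons, microglia, choroid plexus and fibroblasts gave no call, and 2 of 8 microglial markers were at 0 in all CAST/EiJ libraries. CAST/EiJ libraries held 3736710 to 22883700 counts and WSB/EiJ libraries 1626530 to 5331060. The part of these differences in the Abcb4 result was not tested.

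For the other members, the wild-derived strains overlapped. Abcg1, the cholesterol exporter, stood at 11.95 to 91.3 CPM in CAST/EiJ (median 63.2) and at 23.3 to 213 CPM in WSB/EiJ (median 57.6), with a fitted log2 fold change of -0.22 (SE 0.47, adjusted p = 0.82, edgeR). For Abca2 it was -0.60 (SE 0.39, adjusted p = 0.486), for Abca3 -0.54 (SE 0.41, adjusted p = 0.535) and for Abca7 -0.74 (SE 0.46, adjusted p = 0.466). For Abca1 it was 0.04 (SE 0.29, adjusted p = 0.946). Abcg4 was at or under 3 counts in 5 of 6 WSB/EiJ and 1 of 6 CAST/EiJ libraries, and its log2 fold change was 1.59 (SE 1.79, adjusted p = 0.623). Abcg3 was at or under the floor in all 12 wild-derived libraries, so no fold is given.

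Abcg1 (ENSMUSG00000024030, 17:31057675-31117988) had its highest mean in WSB/EiJ and its lowest in 129S1/SvImJ. In the 9 libraries of 129S1/SvImJ it ranged from 1.53 to 22.4 CPM with a median of 8.27. The 5 DBA/2J libraries gave 10.8, 30.001, 9.14, 25.7 and 6.11 CPM, and the 5 A/J libraries 32.7, 12.5, 38.7, 53.6 and 33.7 CPM. C57BL/6J ranged from 0.236 CPM, a single count in a female cortical library, to 38.3 CPM (median 27.6), and NOD/ShiLtJ from 17.9 to 73.1 CPM (median 46.3). The order of the strain means was WSB/EiJ, CAST/EiJ, NOD/ShiLtJ, A/J, C57BL/6J, DBA/2J and 129S1/SvImJ, and none of the 6 pairs of neighbours differed beyond its spread. Across origins, 11 of 12 wild-derived libraries lay above the long-inbred median of 20.8 CPM, and the fitted log2 fold change was 1.51 (SE 0.36), a description without a test. It was 2.06 in cortex, 0.98 in hippocampus and 0.89 in male libraries.

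The WSB/EiJ library from female cortex held the highest level of all 43 for 3 members: 213 CPM of Abcg1, 191 CPM of Abca2 and 285 CPM of Abca3. Its Abca7 level of 154 CPM ranked second, whereas its Abca1 level of 77.8 CPM ranked 35. It held 2731954 counts. Without it, the WSB/EiJ mean of Abcg1 was 47.8 ± 15.7 CPM (SD, n = 5) in place of 75.4 ± 69.0 (SD, n = 6), and CAST/EiJ, at 61.9 ± 27.7 CPM (SD, n = 6), had the highest mean. This comparison was added after the values were seen.

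Differences among the 5 long-inbred strains were tested over their 31 libraries. None of the 8 members was called by edgeR at an adjusted p of 0.05, against 0.832% of 27529 genes. Likewise DESeq2 called 0. In edgeR 3 members had an unadjusted p under 0.05, as did 1812 of the 27529 genes. The range of fitted strain levels was widest for the sparse Abcg3 at 4.56 on the log2 scale (edgeR, adjusted p = 0.738) and was 2.21 for Abcg1 (adjusted p = 0.203) and 0.97 for Abca1 (adjusted p = 0.318). With edgeR's default dispersion Abcg1 and Abca1 were called (adjusted p = 0.0161 and 0.0129), under which 9323 genes were called. The endothelial marker Kdr, the pericyte marker Vtn and the choroid plexus marker Ttr were called among these strains, 1 of 12, 1 of 9 and 1 of 5 genes of their lists, and their part in the levels was not tested.

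Abcg3 (ENSMUSG00000029299, 5:104935057-104982718) was close to undetected in the wild-derived strains. The 6 CAST/EiJ libraries held 2 counts in all and the 6 WSB/EiJ libraries held 3. Reads of all strains were aligned to mm10, the C57BL/6J genome. The effect of strain sequence differences on these counts, and on those of the other members, was not tested. The strain 129S1/SvImJ ranged from 0 to 27.3 CPM (median 2.83), C57BL/6J from 0.547 to 16.3 CPM (median 4.24) and NOD/ShiLtJ from 0.966 to 8.67 CPM (median 4.80). In A/J, 4 of 5 libraries were at or under the floor, and in DBA/2J 3 of 5. For a bound, the mean of the per-library floors of 3 counts was set against the pooled long-inbred mean of 4.94 CPM. Abcg3 was then at least 5.98-fold lower in wild-derived libraries, at least 11.1-fold lower in CAST/EiJ and at least 4.08-fold lower in WSB/EiJ. Since the family was chosen on this contrast, these bounds carry no test. They hold against the pooled mean and not against each long-inbred strain. The long-inbred median was 2.38 CPM, and the medians of A/J and DBA/2J were 0 CPM. The mean floors of CAST/EiJ (0.443 CPM) and WSB/EiJ (1.21 CPM) both lay above the A/J mean of 0.316 CPM. The DBA/2J mean also lay below the WSB/EiJ floor. Neither wild-derived strain was thus shown to lie below A/J, nor WSB/EiJ below DBA/2J. A stretch of 143 bases of Abcg3 matches Zfp951 at 90.2% identity.

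Abcg4 (ENSMUSG00000032131, 9:44273188-44288615) was detected above the floor in 5 of 5 DBA/2J libraries, at 3.74, 5.24, 5.08, 10.01 and 16.05 CPM. A female cortical library of 129S1/SvImJ held the highest level, 25.6 CPM, while 4 of 9 libraries of that strain were at or under the floor. Between 3 and 5 libraries were at or under the floor in A/J, C57BL/6J and WSB/EiJ. The origin difference of Abcg4 was a log2 fold change of -0.91 (SE 1.03).

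The 4 Abca genes were above the floor in each library. Abca1 (ENSMUSG00000015243, 4:53030787-53159895, minus strand) ran from a mean of 85.3 ± 47.4 CPM in 129S1/SvImJ (SD, n = 9) to 166 ± 35.7 CPM in C57BL/6J (SD, n = 6). Abca2 (ENSMUSG00000026944, 2:25428703-25448540) ran from 54.0 ± 40.4 CPM in 129S1/SvImJ (SD, n = 9) to 92.7 ± 58.9 CPM in WSB/EiJ (SD, n = 6). These low means of 129S1/SvImJ come from mostly female libraries. Its Abca1 mean was 59.6 CPM in 6 female and 137 CPM in 3 male libraries. Its Abca2 mean was 42.5 CPM in female and 77.0 CPM in male libraries, of which 1 stood at 159 CPM. Among male libraries the Abca1 mean was lower in NOD/ShiLtJ (114 CPM) and DBA/2J (127 CPM) and higher in the remaining strains. Abca3 was lowest in CAST/EiJ at 74.5 ± 9.37 CPM (SD, n = 6, 62.6 to 85.7 CPM). It was highest in A/J at 131 ± 8.58 CPM (SD, n = 5, 122 to 141 CPM). These strains are the extremes of the order, read after the values were seen, and were not compared by a test. Abca7 ran from 36.7 ± 12.4 CPM in NOD/ShiLtJ (SD, n = 6) to 87.9 ± 60.9 CPM in WSB/EiJ (SD, n = 6). No pair of neighbours in the order of strain means differed beyond its spread for an Abca gene. The strain with the highest mean was the same among male libraries for 4 of the 8 members (Abcb4, Abca1, Abca7 and Abcg4).

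For wild-derived against long-inbred libraries, the fitted log2 fold change was 2.47 (SE 0.57) for Abcb4, 0.64 (SE 0.26) for Abca7, 0.42 (SE 0.20) for Abca1, 0.25 (SE 0.21) for Abca2 and -0.31 (SE 0.20) for Abca3. All of these are descriptions. Without CAST/EiJ, that of Abcb4 was 0.06 (SE 0.94), and without WSB/EiJ it was 3.29 (SE 0.60). The size of the Abcb4 difference thus rested on CAST/EiJ. Without WSB/EiJ, that of Abca7 was 0.16, and that of Abca2 was -0.13. Abca2 also turned among male libraries (-0.03) and in hippocampus (-0.18), and Abca3 in cortex (0.03). The median over all 29120 genes in this contrast was -0.38. Abca3 (ENSMUSG00000024130, 17:24351950-24410201) shares 914 exon bases with D330041H03Rik, a transcript of the opposite strand that stood at means of 1.77 to 9.09 CPM per strain, and whether the counting used strand is not given in the sources used here.

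Cortical and hippocampal EC were compared over all 43 libraries. No member was called by edgeR or by DESeq2, against 0.0755% of 29120 genes in edgeR. An unadjusted p under 0.05 was found in edgeR for 1 member, Abca7, and for 1631 of the 29120 genes. Abca7 (ENSMUSG00000035722, 10:79996494-80015572), which helps move phospholipid and is linked to phagocytosis, ranged from 13.9 to 154 CPM in cortex (median 54.4) and from 4.15 to 155 CPM in hippocampus (median 39.8), and the regions overlapped. The fitted log2 fold change was 0.51 (SE 0.24, edgeR, adjusted p = 0.669). In 18 sets matched for strain, sex and title word, Abca7 was higher in cortex in 12 and in hippocampus in 6. Abca1 and Abca2 were each higher in cortex in 9 of 18 sets, with log2 fold changes of -0.06 (SE 0.19) and 0.12 (SE 0.19). Abcg1 was higher in cortex in 7 and in hippocampus in 11, with a log2 fold change of -0.01 (SE 0.38). The adjusted p-values of the 7 members other than Abca7 ran from 0.735 to 0.998. Gfap, 1 of 8 astrocyte markers, was lower in cortex.

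Female and male libraries were compared next. EdgeR called 0 of the 8 members, against 2.85% of 29120 genes. Of the 830 genes called, 745 were higher in female libraries, and with DESeq2 size factors 430 of 585. Those size factors moved the median log2 fold change of all genes from -0.12 to -0.24. An unadjusted p under 0.05 was found in edgeR for 1 member and for 3819 of the 29120 genes. Abca1, the exporter to lipid-poor apolipoproteins, ranged from 18.3 to 220 CPM in female libraries (median 81.4) and from 64.3 to 232 CPM in male libraries (median 152), with overlap. The log2 fold change was -0.47 (SE 0.19, edgeR, adjusted p = 0.229). It was called by DESeq2 (-0.61, adjusted p = 0.0397), and over all alternatives the adjusted p ran from 0.0397 to 0.934. In 129S1/SvImJ the 6 female libraries lay between 18.3 and 89.1 CPM and the 3 male libraries at 172, 106 and 132 CPM. Without this strain the log2 fold change was -0.14 (SE 0.20). The mean was higher in males in 5 of 7 strains. With the rRNA-like share as a covariate the log2 fold change was 0.16 (SE 0.34). The sexes did not overlap in that share, and sex and library composition cannot be told apart.

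Abcb4 was above the floor in 10 of 16 female and 24 of 27 male libraries, with a log2 fold change of -0.98 (SE 0.63, adjusted p = 0.49, edgeR) and a higher male mean in 6 of 7 strains. With the rRNA-like share as a covariate its sign turned (2.05, SE 0.99, adjusted p = 0.39). Abcg3 had 11 of 16 female and 11 of 27 male libraries above the floor and a log2 fold change of 1.21 (SE 0.89, adjusted p = 0.496, edgeR). Its sign turned with the rRNA-like share as a covariate (-0.60, SE 2.31) and without 129S1/SvImJ (-0.37, SE 1.297). Since female libraries were deeper, a count above 3 was reached there at a lower CPM. For Abcg1 the log2 fold change was 0.49 (SE 0.38), and for Abca2, Abca3, Abca7 and Abcg4 it lay between -0.21 and 0.25. Among cell type markers, the astrocyte genes Slc1a2 and Slc1a3 were lower and Esam and Ttr higher in female libraries, 2 of 8 astrocyte, 1 of 12 endothelial and 1 of 5 choroid plexus markers.

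The title word was compared among the 27 male libraries. Neither edgeR nor DESeq2 called a member, against 1.06% of 27529 genes in edgeR. An unadjusted p under 0.05 was found in edgeR for 1 member and for 2233 of the 27529 genes. Abca2, a transporter of endolysosomal lipid, ranged from 30.1 to 86.8 CPM in libraries titled high (median 55.2, n = 14) and from 55.7 to 159 CPM in those titled low (median 82.7, n = 13). The log2 fold change was -0.51 (SE 0.20, edgeR, adjusted p = 0.344), with adjusted p-values from 0.0572 to 0.66 over the alternatives. The highest library, 159 CPM, was a hippocampal library of 129S1/SvImJ, and without that strain the log2 fold change was -0.30. Markers moved with the same word: 3 of 8 astrocyte, 1 of 8 neuronal and 1 of 7 oligodendrocyte markers were lower in libraries titled high, as were Rgs5 (1 of 9 pericyte markers) and Erg, and 4 of 12 endothelial markers were higher. The oligodendrocyte markers, a cell type rich in Abca2, summed to 14.7 to 156 CPM in libraries titled high and to 31.4 to 189 CPM in those titled low. Their part in the Abca2 values was not tested. For the other 7 members the log2 fold change lay between -0.09 and 0.35, with adjusted p-values of 0.651 to 0.996.

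**Figure D4:**
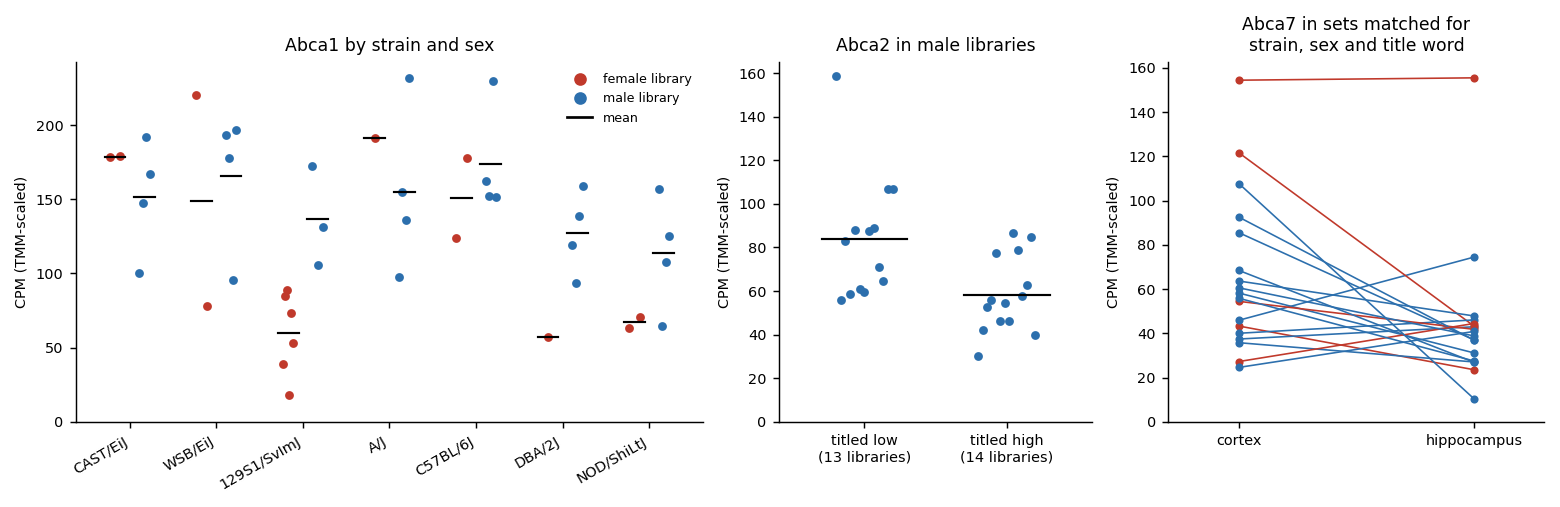
TMM-scaled CPM of the 3 members with an unadjusted p under 0.05 between sexes, title words or regions: Abca1 by strain and sex (left), Abca2 in male libraries by title word (middle) and Abca7 in 18 sets matched for strain, sex and title word (right, a line per set, red female and blue male). Points are libraries, or set means at right, and bars are means; female libraries of 129S1/SvImJ stay at or below 89.1 CPM of Abca1, and Abca7 falls from cortex to hippocampus in 12 of 18 sets.

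**Figure D5:**
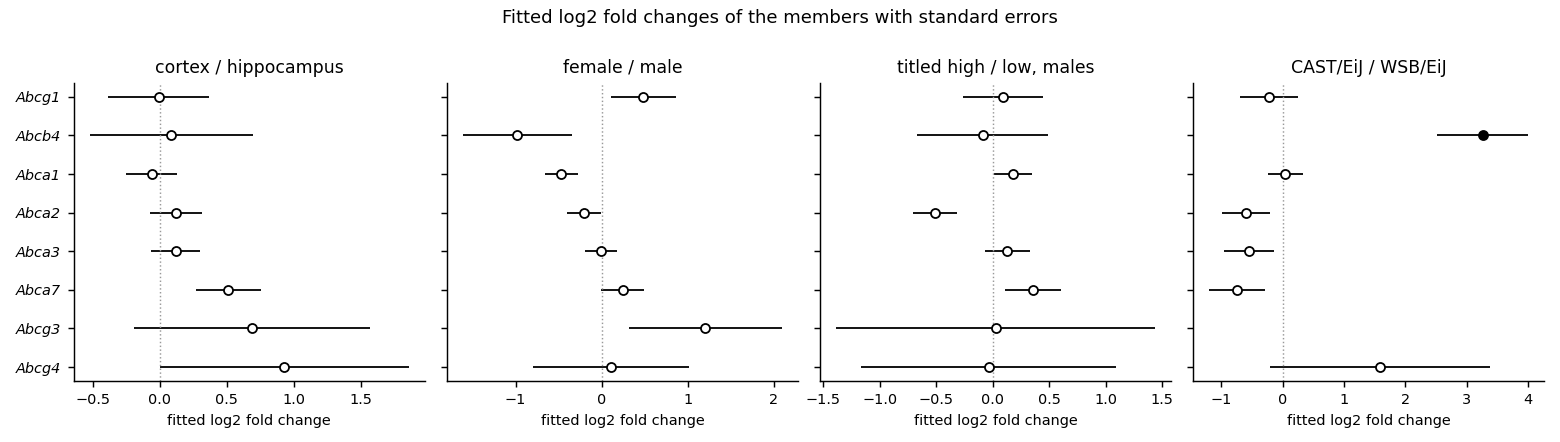
Fitted log2 fold changes of the members in 4 comparisons, with bars of 1 standard error; the filled point marks an adjusted p under 0.05. Only Abcb4 in CAST/EiJ against WSB/EiJ is filled, at 3.26, and Abcg3, under the floor in both of these strains, is left out there.

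Other genes of lipid export were read from lists of 47 genes: further ABC lipid transporters, LXR regulators and targets, lipid acceptors and their partners, sterol handling, and flippases and scramblases. Between cortex and hippocampus 0 of 46 tested genes were called, with 6 at an unadjusted p under 0.05. Of all 29120 genes, 22 were called and 1631 were under that p. Among the long-inbred strains it was 0 of 44, with 7 at an unadjusted p under 0.05. Of 27529 genes, 229 were called there and 1812 were under that p. The lists were read from edgeR only. The median log2 fold change of the list was 0.09 between regions, against -0.03 for all genes.

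Between the sexes 2 of 46 genes were called, against 2.85% of all 29120 genes. With the rRNA-like share as a covariate 65 genes were called in place of 830, and sex and library composition cannot be told apart. Apoe, the apolipoprotein that accepts cellular cholesterol in the brain, was higher in female libraries (median 2041 CPM, 750 to 5146, against 1103 CPM, 381 to 4178), with a log2 fold change of 0.88 (SE 0.20, adjusted p = 0.00242, edgeR). Clu, a second apolipoprotein made by astrocytes, was lower (median 186 CPM against 298 CPM, log2 fold change -1.12, SE 0.21, adjusted p = 0.000231, edgeR). By title word in males, 2 of 46 were called, against 1.06% of all 27529 genes. Clu was lower in libraries titled high (254 ± 97.8 CPM, SD, n = 14, against 517 ± 301 CPM, SD, n = 13), and Pltp, the phospholipid transfer protein, was higher (2403 ± 584 against 1709 ± 348 CPM). The lists' other genes were not called in these comparisons, and the ABC and LXR lists gave no call in either. Astrocyte markers were called lower in the same libraries as Clu, 2 of 8 by sex and 3 of 8 by title word. Apoe, by contrast, was higher in the female libraries, where the called astrocyte markers were lower. The part of astrocyte content in the Clu and Apoe values was not tested.

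Between CAST/EiJ and WSB/EiJ, 3 of 45 genes were called, against 1.87% of all 20712 genes. Pltp was higher in CAST/EiJ, at 1715 to 3346 CPM against 1317 to 1787 CPM (log2 fold change 0.84, SE 0.17, adjusted p = 0.00678, edgeR). Atp10a and Atp8a1, P4-type ATPases that flip phospholipids inward, the opposite direction to Abcb4, were lower in CAST/EiJ. Atp10a stood at 207 to 245 CPM against 333 to 611 CPM (log2 fold change -0.96, SE 0.21, adjusted p = 0.0149, edgeR). Atp8a1 stood at 50.6 to 81.7 CPM against 39.8 to 257 CPM (log2 fold change -1.41, SE 0.34, adjusted p = 0.0287, edgeR). The median log2 fold change of the lists was 0.19, against 0.29 for all 20712 genes tested.

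The genes whose level was most like each member's were named by Spearman's rho of log2(CPM + 1) over the 43 libraries, among 10643 genes with a mean of at least 5 CPM. The libraries differ in strain, sex and depth, so these values are descriptions. For Abcb4 they were C1galt1 (rho = 0.71), Lepr (0.69) and Cmtm6 (0.68). For Abcg1 they were Slc39a10 (0.72), Slc1a1 (0.70) and Pcbp2 (0.68). For Abca2 they included Cerk (0.71) and Ptpn9 (0.61), and for Abca3 they were Ifnar1 (0.66), Ep300 (0.64) and Ly6e (0.63). For Abca1 they were S1pr1 (0.58), Tom1l2 (0.58) and Sfxn3 (0.57), and for Abca7 Ankrd28, Vps16 and Rae1 (0.58 each). Abcg3 and Abcg4 lay below 5 CPM and were not compared. Among the members themselves the highest rho was 0.37, shared by several pairs, and the lowest was -0.38, between Abca1 and Abcg3.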

How the data were processed

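Total RNA of sorted EC was depleted of rRNA and made into stranded libraries, read from a single end. Per the study's methods and the submitters' processing notes, the authors aligned reads of all strains to mm10, the C57BL/6J genome, with HISAT2 2.1.0 and counted them per gene with featureCounts of Subread 1.4.4. The deposited values are raw counts without normalization. Here, library sizes were adjusted by TMM with edgeR 4.0.16 under R 4.3.3. Genes reaching 0.5 CPM in 1 or more libraries of a comparison entered edgeR's quasi-likelihood test (trended dispersion, bias-adjusted deviances, no covariates), two-sided, with Benjamini-Hochberg adjustment over all genes at 0.05. This dispersion setting, the members and the gene lists were chosen with earlier results of these data known. The program was also run on simulated counts, drawn independently for each library, without shared mice or differences in rRNA-like share. That run does not show how the dispersion setting performs on these libraries. Alternatives were DESeq2 1.42.0 and its size factors, other filters, edgeR's default dispersion, covariates, subsets and left-out libraries or strains. In fits with covariates, genes with a fitted count above 5 times their largest count were left out. The genes named are the 8 members, the listed pathway genes and markers that were called, and the 3 genes most like each member with a mean of at least 5 CPM, of which 1 is not reported here. Exons, positions and overlaps come from GENCODE M21, and similar transcripts were sought with BLAST 2.17.0. A floor of 3 counts covers counting error only. Library totals ran from 1626534 to 49372356 counts.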

Additional observations from a re-analysis of the deposited data

Results flagged for a closer look

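In each strain of 5, 6 or 9 libraries, the highest and the lowest library of each member were compared with the others. Dixon's test on log2(CPM + 1) was used, which marks about 1 in 20 groups by chance where values are normally distributed. That rate does not hold for groups with most libraries at or near 0. The test marked 10 of 56 groups. For Abcg3 in CAST/EiJ and Abcg4 in WSB/EiJ, each library but the marked one stood at 0 CPM, so the mark was fixed by a single library with counts. Abcg1 stood at 11.95 CPM in the male cortical CAST/EiJ library titled low, where the next was 58.8 CPM. Abcb4 was at 0 CPM in the male hippocampal A/J library titled low, where the next was 8.08 CPM. Abca2 stood at 159 CPM in the male hippocampal 129S1/SvImJ library titled low and at 54.3 CPM, the lowest of its strain, in the female hippocampal DBA/2J library. Abcg3 stood at 1.39 CPM in the female hippocampal A/J library, at 0.0951 CPM (2 counts) in the female hippocampal CAST/EiJ library and at 0.865 CPM (2 counts) in the female cortical WSB/EiJ library. Abcg4 stood at 4.61 CPM in the male hippocampal A/J library titled low, at 11.7 CPM in the male cortical CAST/EiJ library titled low and at 6.29 CPM in the male hippocampal WSB/EiJ library titled low.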

How the results depend on the processing

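No paired analysis was possible because no label ties a library to its mouse, and replicates are numbered in 129S1/SvImJ titles only. Among alternative values of the members' tests, 667 stayed on their side of the threshold, 3 newly passed it and 4 no longer passed it; the 7 are the Abca1, Abcg1 and Abcb4 values given in the report. None that had passed turned its sign. Counts over all genes moved more. Between regions 22 genes were called, and 61 with DESeq2, 8023 with edgeR's default dispersion, 11 without NOD/ShiLtJ and 46 with strain, sex and title word as covariates. Between sexes 830 were called, and 10473 with the default dispersion, 65 with the rRNA-like share as a covariate, 532 without 129S1/SvImJ, 515 without DBA/2J, 448 in libraries titled high, 240 in cortex, 304 in hippocampus and 539 with strain, region and title word as covariates. By title word 293 were called, and 635 with DESeq2, 8327 with the default dispersion, 560 with strain and region as covariates, and 195, 132, 148, 124 and 188 without 129S1/SvImJ, A/J, C57BL/6J, CAST/EiJ and NOD/ShiLtJ. Among long-inbred strains 229 were called, and 519 with DESeq2, 9323 with the default dispersion, 111 in male libraries and 199 to 339 with a DBA/2J or A/J library left out, the only strains so treated. Between CAST/EiJ and WSB/EiJ 387 were called, and 1246 with DESeq2, 176 in male libraries and 181 to 441 with a library left out. The strain with the highest mean was the same for 4 of 8 members in male libraries and, chosen after seeing the data, for 5 of 8 without the WSB/EiJ female cortical library. Depth limits Abcg3, Abcg4 and Abcb4, at or under 3 counts in 21, 19 and 9 of 43 libraries.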
